A study of Rattus norvegicus with 8 samples.

Results

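The stretch of rat chromosome 3 between 15 and 18 Mb (chr3:15000000-18000000, build rn4) held 792 of the 375449 probes of a promoter tiling array, in 54 of its 27740 probe runs, and every one of the 792 could be compared between groups. A run is a series of probes separated by gaps of at most 500 bp, and on this array it mostly stands for the promoter of one annotated transcript start. The window was selected because it held 2 of the largest probe differences between prenatally stressed and control rats whose groups did not overlap, at chr3:16278467-16278526 and chr3:16739685-16739744. Those differences, and every other difference between the groups in the window, are therefore given as a description and not as a test. The nearest run below the window ended at 14803099 and had a mean log2 ratio of -0.45, and the nearest run above began at 18128435 and had a mean log2 ratio of -0.01.

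The prefrontal cortex of 8 male Sprague-Dawley rats was examined at postnatal day 62. The 4 PNS (prenatal stress) rats were born to dams that had been restrained under bright light in the last week of gestation, and the 4 Ctrl (control) rats to dams left undisturbed. The controls were rats C180, C182, C184 and C185. The stressed group held C141, C142, C144 and C145, and values of single rats are given in that order throughout. One male was taken per litter, so a rat stands for a litter. The tissue was bulk cortex, in which a change within a cell type and a change in the mix of cell types cannot be told apart, and DNA arrays hold no expression marker by which the dissection could be checked.

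Cytosines of CpG dinucleotides can carry a methyl group, and methylation of CpG-dense promoters usually goes with a silent gene, whereas CpG-poor promoters often carry it in most tissues. Methylated DNA immunoprecipitation (MeDIP) pulls sheared DNA down with an antibody to 5-methylcytosine, so a fragment is enriched according to how many methylated cytosines it holds. On each array the bound DNA was labelled with Cy5 and the unenriched input of the same rat with Cy3, and the value reported is log2 (bound/input) after quantile normalization over the 8 arrays. A positive value means more bound than input signal relative to the whole array. The input carries no information on methylation, but a probe with a dim input gives a ratio of small numbers.

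The probes of the window were longer, more often repeated and dimmer than those of the whole array. Their mean length was 57.6 bases against 54.1 over all probes, and 72% of them were 60-mers against 42%. The probe sequences were not used here. Of the 792 probes, 328 (41.4%) had 2 spots on each array against 10.5% over the array, and the same held for the flanking windows of equal width, with 35.8% below and 39.1% above. Of the 54 runs, 53 held at least 3 probes, and the other was a single probe at chr3:16611140-16611184.

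The input of the window was dim. On average over the arrays, 40.8% of the window's probes had an input signal well above background (a flag of the scanner software), against 67.3% of all other probes. The window was lower on each of the 8 arrays, with a mean difference of -26.5 percentage points (SD 1.48, range -28.6 to -24.4, exact two-sided sign permutation test, adjusted p = 0.0094 over 6 tests). It was also dimmer than the flanking windows, with a difference of -43.1 points against the 3 Mb below it and of -16.5 points against the 3 Mb above it, again on 8 of 8 arrays each (adjusted p = 0.0094 for both). With 8 arrays the smallest p this test can give is 0.0078. All arrays carry the same probes, so this test, here and for the levels below, says only that the arrays differ the same way. Brightness was not part of the selection rule, but the size of a difference was tied to it. Elsewhere on the array the median absolute difference between groups was 0.34 at probes with input well above background on no array. It was 0.23 at those with such input on all 8. Input was well above background on all 8 arrays at 242 probes (30.6%) of the window and on none at 387 (48.9%). Both channels were that bright on all 8 arrays at 118 probes.

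The dim runs lay away from the ends of the window, but not as a block. The runs at 16761844 (11 of 17 probes bright on all arrays) and 17203825 (13 of 25) lay among them. In 31 of the 53 runs of at least 3 probes, at most 25% of the probes had a bright input on all arrays, and these runs spanned positions 15471889 to 17412942. The 10 runs in which more than 50% of the probes were bright included 4 of the first 5 runs of the window and all of the last 4.

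**Figure D1:**
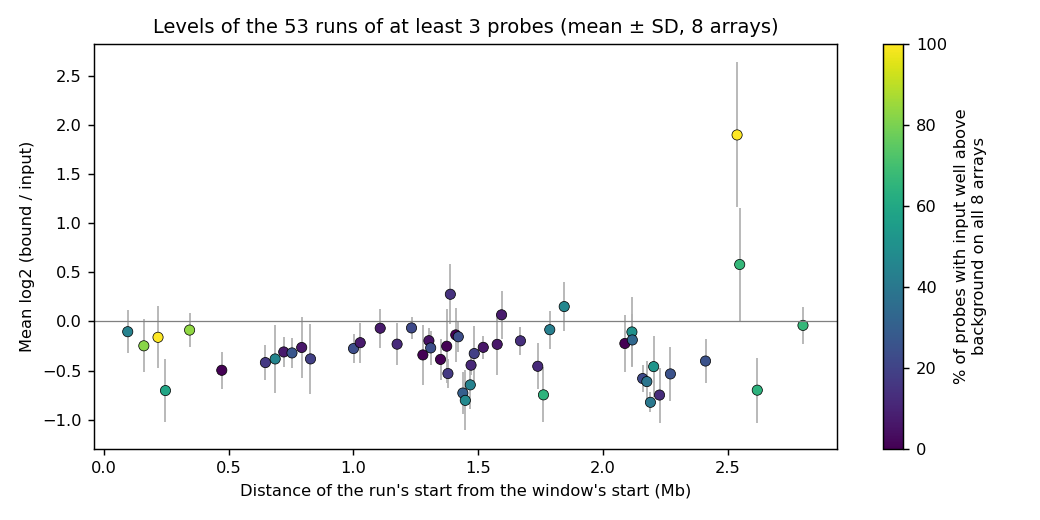
Mean log2 (bound/input) of the 53 runs of at least 3 probes against their distance from the start of the window in Mb, as mean ± SD over 8 arrays. Colour gives the share of a run's probes with an input well above background on all 8 arrays. The run of the highest level, at 1.90, is also among the brightest, and most dark points lie between -0.8 and 0.

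The window's ratios were low. The median log2 ratio over its probes was -0.22, -0.33, -0.21 and -0.34 in Ctrl, and -0.10, -0.25, -0.09 and -0.16 in PNS. The median over all other probes was -0.04 on every array, as quantile normalization fixes it. The window was therefore below the rest of the array on 8 of 8 arrays, with a mean difference of -0.17 (SD 0.10, exact two-sided sign permutation test, adjusted p = 0.0094). It was below the 3 Mb before it on 8 of 8 arrays, with a mean difference of -0.45 (adjusted p = 0.0094), and above the 3 Mb after it by a mean of 0.07 on 7 of 8 arrays (adjusted p = 0.039). Brightness differed between all of these, as given above. Among probes with a bright input on all arrays, normalized on their own, the difference between the window and the rest was -0.46 (exact permutation p = 0.0078). The low level was thus present at bright probes. Normalized with all probes, the median level of these was -0.64 in the window and -0.14 elsewhere. At probes with a bright input on no array it was 0.03 and 0.07, so the window was hardly lower there. In the classes between, it was -0.60 against -0.32 (1 to 3 arrays) and -0.81 against -0.39 (4 to 7).

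A single promoter stood far above this. The run chr3:17538312-17539544, with 12 probes of 46.8 bases on average, had a mean log2 ratio of 1.90, above 99.5% of the 25615 runs of the array. All of its 12 probes were well above background in both channels on all 8 arrays. Its mean was 1.78, 1.25, 2.68 and 2.61 in Ctrl, and 0.48, 1.98, 2.08 and 2.36 in PNS. The lowest value thus belonged to a PNS rat, and the groups overlapped. Within the run the level climbed from 0.66 at its first probe to 3.25, 3.20 and 3.15 at the last 3, and the last 3 probes were above the first in each of the 8 rats. The plot of the 12 probes shows it.

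**Figure D2:**
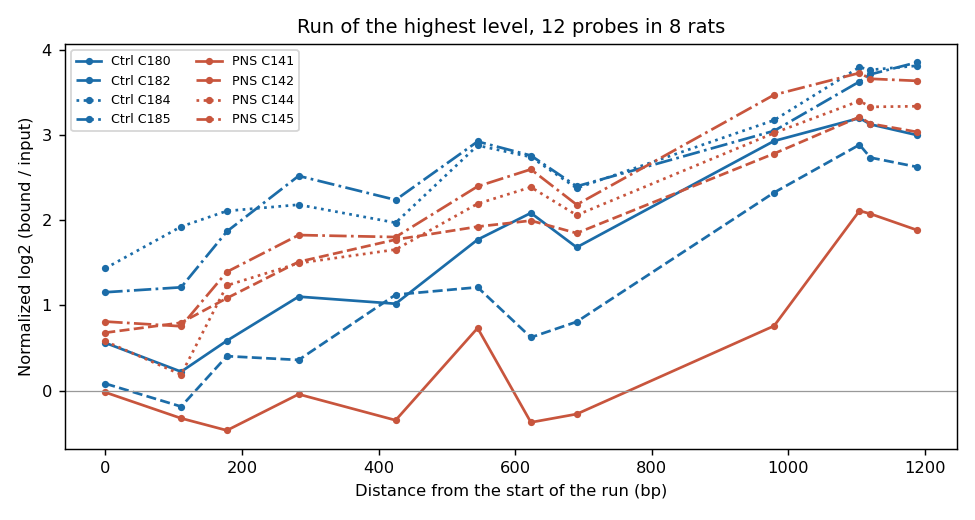
Normalized log2 (bound/input) of the 12 probes of the run of the highest level against the distance of each probe from the run's start in bp, with a line for each rat. In every rat the last probes lie above the first, and PNS rat C141 lies below the other rats at all 12 probes.

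The next highest runs were chr3:17548778-17549260, about 9 kb further along the chromosome, with 3 probes and a mean of 0.58, and chr3:16388502-16388867, with 7 probes and a mean of 0.28. The latter had 1 bright probe in 7 and was at -0.46 in the values of the submitters' table. In those values the runs at 17538312 and 17548778 were at 1.96 and 0.34. The lowest runs, given next, were at -1.31, -1.32 and -1.36 there, so the run at 16388502 still lay between them. The runs at 16278279 and 16593945, at -0.34 and 0.07 in the processed signals, were at -1.34 and -1.24 there. The lowest runs thus did not stand apart in those values. The lowest runs were chr3:17190823-17191919 at -0.82 (15 probes), chr3:16448436-16449697 at -0.80 (17 probes) and chr3:17227263-17228258 at -0.75 (8 probes). They stood at percentiles 3.34, 3.9 and 5.63 of all runs. The lowest of them varied little, between -1.03 and -0.71 over the 8 rats.

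The first selected probe, A_45_P02522014 at chr3:16278467-16278526, had a log2 ratio of -2.59, -1.48, -1.75 and -1.76 in Ctrl. In PNS it was 1.31, 0.31, 0.39 and 0.64. The groups did not overlap, and the difference was 2.56 (SE 0.34), the 6th largest of the 12151 probes of the array whose groups were apart. Within slides, each of which held 1 Ctrl and 1 PNS array, it was 3.90, 1.79, 2.14 and 2.40.

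The signals behind these ratios were at the bottom of the scanner's range. The input was 223, 114, 258 and 271 units in Ctrl and 219, 56, 62.1 and 58.3 in PNS. It was not well above background on any array, and in C144 and C145 it was not significantly above it either. The bound signal was 51.9, 56, 75.3 and 76.5 units in Ctrl and 380, 74.8, 89.1 and 98 in PNS. It was significantly above background in C141 and C145 and in no other rat, and well above it in C141 alone. Where a signal is not significant the processed value is a stand-in close to 1 level per array: rounded to whole units, such bound spots took only 1 to 20 different values on an array of 414785 spots. The 4 Ctrl ratios therefore set a measured input against a stand-in for the bound signal, and the ratios of C142 and C144 rest on a stand-in for the bound signal as well. Since the Ctrl bound signals and 3 of the 4 PNS ones were not well above background, the difference of 2.56 describes the processed values and is no measured fold.

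The second selected probe, A_45_P02523525 at chr3:16739685-16739744, had a log2 ratio of -1.40, -1.61, -3.21 and -2.05 in Ctrl, and of 3.23, -1.07, -1.14 and 0.47 in PNS. The groups did not overlap, and the difference was 2.44 (SE 0.89), the 15th largest. The gap between the groups was narrow, with the highest Ctrl rat at -1.40 and the lowest PNS rat at -1.14, and the rat C141 alone stood at 3.23. Without C141 the difference was 1.53. Within slides it was 4.63, 0.54, 2.07 and 2.51.

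Its input was 256, 339, 759 and 359 units in Ctrl and 58.9, 202, 265 and 147 in PNS, and so was higher in each Ctrl rat than in 3 of the 4 PNS rats. The input was well above background on 3 of 8 arrays and the bound signal on none, so that the difference of 2.44 is no measured fold either. The bound signal was 126, 154, 81.1 and 83.7 units in Ctrl and 255, 80.5, 89.1 and 214 in PNS, and it was not significantly above background in C184, C185, C142 and C144. At both selected probes the input spread between groups as well as the ratio, as the plot of their signals shows.

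**Figure D3:**
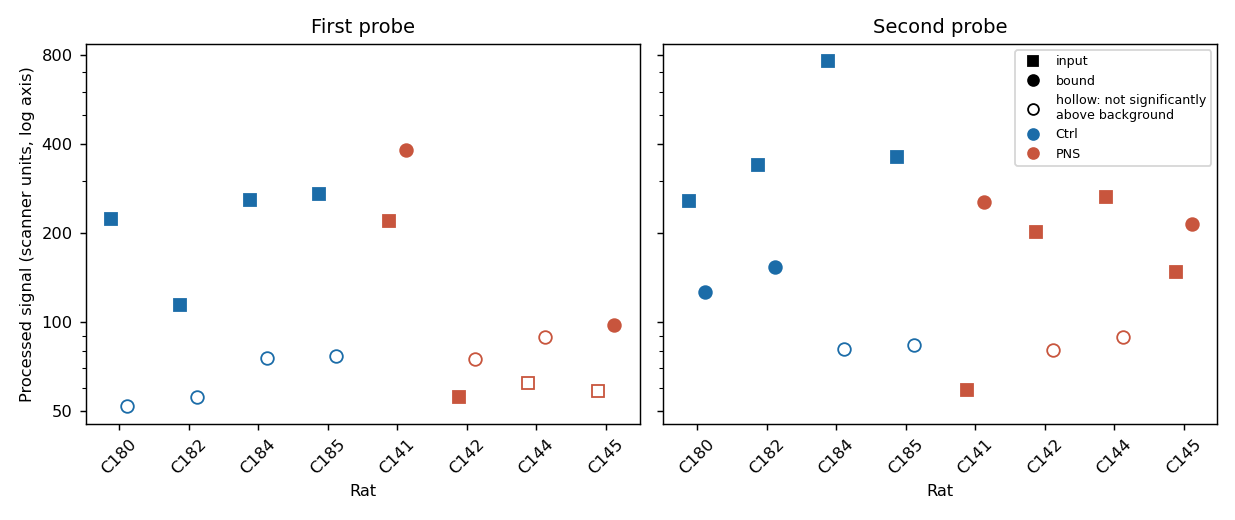
Processed scanner signals (log axis) of the input (squares) and bound (circles) channels at the selected probes in each rat, with hollow symbols where the signal was not significantly above background. At the first probe the bound signal is hollow in all 4 Ctrl rats and in C142 and C144, and at the second in 2 rats of each group.

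Both probes were spotted once per array, so no second spot was there to compare. In the values of the submitters' table, which come from background-subtracted median signals, the groups overlapped at both. There the first probe was at -2.36 ± 0.42 in Ctrl and -1.42 ± 1.32 in PNS (mean ± SD, n = 4 each), a difference of 0.94, and the second at -1.65 ± 0.21 and -1.19 ± 1.24, a difference of 0.46. With normexp background correction of the median signals (a model-based subtraction that leaves no negative value) the differences were 0.25 and 0.21.

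The neighbours of the selected probes differed less in the processed signals, with no difference above 1.33 in either run. In the submitters' values, where 674 of the window's 792 probes could be compared, the means over the other probes were 0.54 and 0.48. They may not cover every neighbour. At the selected probes the values were 0.94 and 0.46, so there the second probe did not stand out from the compared probes of its run. The run of the first, chr3:16278279-16279281, had 18 probes. Of the other 17, 13 were higher and 4 lower in PNS, with differences from -0.41 to 1.25, a mean of 0.32 and 1 probe whose groups were apart (chr3:16278848-16278907, difference 0.77). The mean of these 17 probes was -0.59, -0.70, -0.53 and -0.11 in Ctrl and -0.05, -0.40, -0.01 and -0.20 in PNS, so that the groups overlapped. The 9 neighbours with 2 spots had a mean difference of 0.56, and the 8 with 1 spot had a mean difference of 0.04. None of the 18 probes had a bright input on all 8 arrays, and 11 had one on no array. No probe bright throughout was therefore available within the run. Among probes with a bright input on no array, 72.6% were higher in PNS in the window and 65.9% elsewhere. The 13 of 17 here and the 11 of 16 in the next run are close to those shares. They are not read as agreement with the selected probes.

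The run of the second, chr3:16739032-16739948, had 17 probes. Of the other 16, 11 were higher and 5 lower in PNS, with a mean difference of 0.17. This mean was 0.08 without C182, 0.09 without C180, 0.29 without C184 and 0.26 without C141. The probes that overlap the selected one lay on opposite sides of 0, with a difference of -0.39 at chr3:16739630-16739689 and of 0.23 at chr3:16739704-16739763. The probes with a bright input on all arrays were at the end of the run and lay on opposite sides too, with -0.61 at chr3:16739830-16739880 and 0.15 at chr3:16739900-16739948. The mean of the 16 probes was -0.76, -0.79, -0.14 and -0.38 in Ctrl and -0.59, -0.23, -0.27 and -0.30 in PNS. The groups overlapped here too. In the plot of both runs the selected probes are the lowest points of the Ctrl line.

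**Figure D4:**
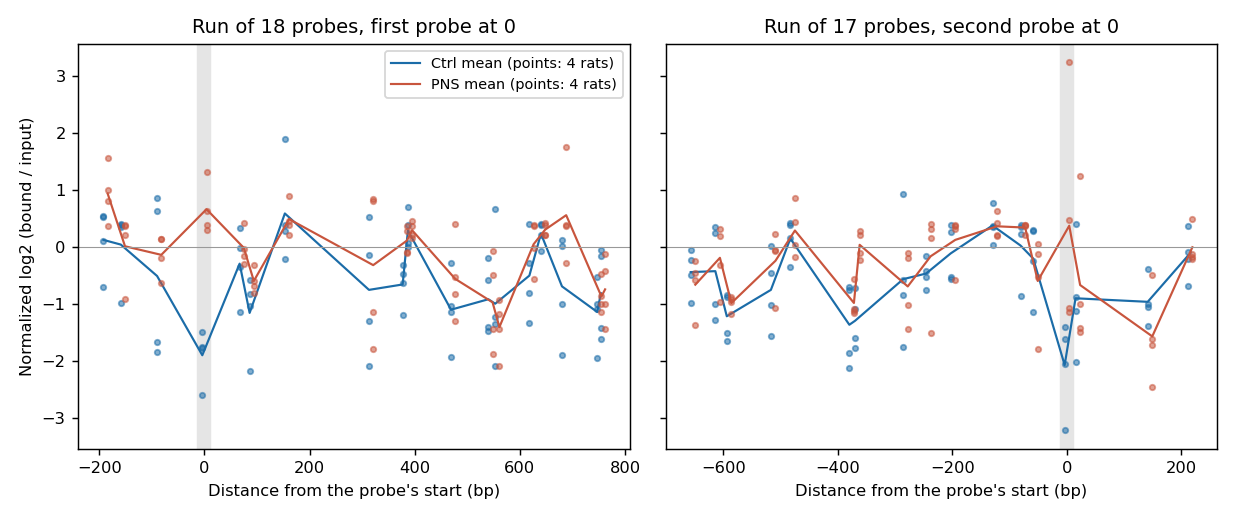
Normalized log2 (bound/input) of every probe in the runs of the selected probes, against the distance in bp from the selected probe (grey band). Points are rats and lines are group means, and the gap between the lines is widest at the band, at 2.56 and 2.44.

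Over the whole window, 17 probes were higher in PNS with no overlap between the groups (2.15% of 792, against 1.54% of all probes), and 10 were lower with no overlap (1.26% against 1.69%). At an unadjusted p of at most 0.05 and a difference of at least 0.5, 34 were higher (4.29% against 2.61%) and 12 lower (1.52% against 2.25%). No probe of the window or of the array had an adjusted p of at most 0.2 in limma (0% of 375108), and the smallest adjusted p was 0.97. The window was chosen on this contrast, and nothing is read from these shares.

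Which way a probe differed went with its brightness. All 17 separated probes that were higher in PNS had a signal that was not significantly above background on at least 1 array, all were 60-mers, and 14 had a bright input on no array. All 5 separated probes with a bright input on 8 arrays were lower in PNS, at chr3:16845488-16845547 (-0.80), chr3:17619677-17619731 (-0.69), chr3:15161138-15161187 (-0.53), chr3:15159714-15159766 (-0.41) and chr3:15163002-15163061 (-0.41). With bright probes normalized on their own, 4 were separated as higher and 4 as lower, so this one-sided split depended on the scaling. The 5 made up 2.07% of the window's 242 bright probes, against 3.39% of the bright probes of the array. The median difference over the window was 0.08, but it was 0.25 at the 387 probes with a bright input on no array, 0.18 at the 73 with 1 to 3 such arrays, 0.01 at the 90 with 4 to 7, and -0.23 at the 242 with 8. Of these 242 bright probes, 166 were lower and 76 higher in PNS, and of the 387 dim ones 106 were lower and 281 higher.

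The same order held over the rest of the array, with medians of 0.17, 0.14, 0.03 and -0.09 in the corresponding classes. When only probes with a bright input were normalized and compared, the median over the window was -0.06. Signals at stand-in values were common, with the bound signal not significant at 36.2% to 60.1% of the window's probes per array against 15.8% to 28.5% elsewhere. Where neither channel was significant, the median normalized ratio in the window was -0.03, 0.26, 0.38 and 0.35 in Ctrl and 0.21, 0.40, 0.39 and 0.37 in PNS. The part of these values in the differences was not tested. Ctrl arrays took position 1 and PNS arrays position 2 on every slide, so that array position and group cannot be told apart.

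**Figure D5:**
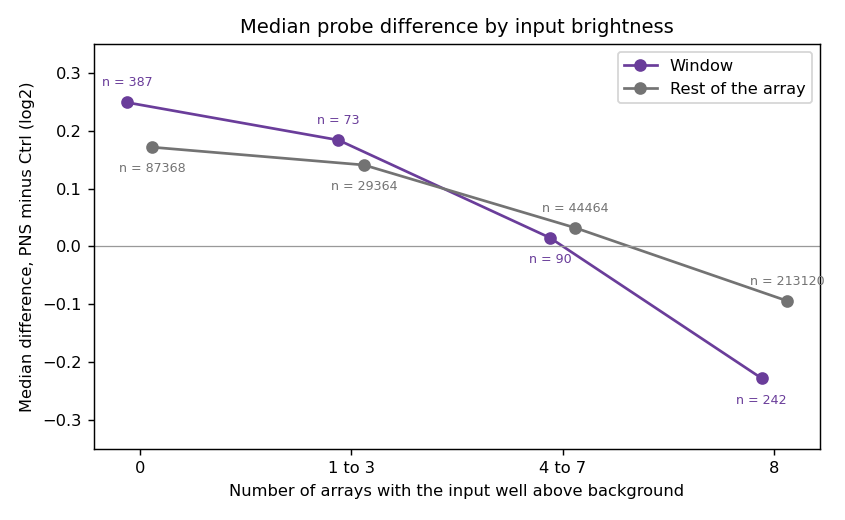
Median difference between PNS and Ctrl (log2) of probes grouped by the number of arrays on which their input was well above background, for the window and for the rest of the array, with the number of probes. Both lines go from above 0 at dim probes to below 0 at probes bright on all 8 arrays.

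Neighbouring and repeated spots were closer to each other where they were bright. For 139 pairs of adjacent probes in the window that were bright on all arrays, the correlation of their deviations from the group means over the 8 arrays was 0.60 on average, and the differences had the same sign in 106 pairs (76.3%). For 261 pairs that were bright on no array it was 0.17, with the same sign in 158 (60.5%). Elsewhere on the array the values were 0.53 and 68.5% for bright pairs, and 0.12 and 56.3% for dim ones. Of the dim pairs in the window, 153 overlapped, so that they share bases as well as an array. One direction prevailed in each class, with 72.6% of the window's dim probes and 31.4% of its bright ones higher in PNS. Unrelated probes would therefore often share a sign too, and how much of the shares this accounts for was not tested.

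For the 328 probes with 2 spots, the ratios of both spots correlated with r between 0.78 and 0.90 per array at the 91 bright probes, and with r between 0.15 and 0.39 at the 164 probes bright on no array. The median SD of a single spot was 0.40 and 0.68 on the log2 scale. The difference between PNS and Ctrl computed from either spot alone had the same sign at 77 of the 91 bright probes (84.6%) and at 111 of the 164 dim ones (67.7%). These correlations and shares run over probes that share arrays and a prevailing direction, and are given as a description.

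The other 8 of the 10 largest separated differences in the window were at probes that differed in brightness. At 17088325 the input reached 662 units in C141 and the bound signal 724 units in C180, both well above background. At 15471889 only the bound signal of C144 was not significant. All 10 probes were 60-mers spotted once, 6 had a bright input on no array, none had one on all 8, and each had a signal that was not significant on some array. Those lower in PNS were at chr3:16388755-16388814 (difference -1.82), chr3:17088325-17088384 (-1.44) and chr3:15471889-15471948 (-1.19). Those higher in PNS were at chr3:16469401-16469460 (1.61), chr3:15095835-15095894 (1.51), chr3:16521489-16521548 (1.36), chr3:16739319-16739378 (1.33) and chr3:16378955-16379014 (1.21). The probe at 16739319 lies in the run of the second selected probe, 366 bp before it. In the submitters' values the groups of 1 of the 10 did not overlap, namely the probe at 16469401, with a difference of 1.81.

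The largest difference below 0 was at chr3:16388755-16388814. There the log2 ratio stood at 0.06, 2.57, 0.43 and 1.10 in Ctrl, and -1.56, 0.01, -1.05 and -0.51 in PNS. The closest values were those of the Ctrl rat C180 and the PNS rat C142, which were 0.05 apart. Its input was 52.1, 49, 54.4 and 77.3 units in Ctrl and 122, 115, 245 and 126 in PNS, so the input was higher in each PNS rat. The input was not significantly above background in C180, C182 and C184, where it is a stand-in value. The same holds for the bound signal in C180, C184, C141, C144 and C145.

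Of the separated probes past the limits of 0.05 and 0.5, none was well above background in both channels on all 8 arrays. The nearest was A_45_P02523761 at chr3:16845488-16845547, named after its values were seen, which had a bright input on 8 arrays and a bright bound signal on 7. Its ratio was -0.18, -0.55, -0.01 and -0.05 in Ctrl and -0.94, -0.95, -1.18 and -0.92 in PNS. The PNS rat was the lower one on every slide, with differences of -0.75, -0.40, -1.17 and -0.87 and a mean difference of -0.80 (SE 0.24, limma adjusted p = 0.97). Its bound signal was 1069, 758, 864 and 612 units in Ctrl and 642, 680, 272 and 480 in PNS. Its input was 1148, 947, 879 and 638 units in Ctrl and 940, 1559, 836 and 1092 in PNS. The groups overlapped in each channel taken alone. In C142 and C145 the input was higher than in the Ctrl rat of the same slide, and in C141 and C144 it was lower. With normexp the difference in the ratio was -0.28. In the submitters' values the groups were apart as well, with a difference of -0.78. Its run, chr3:16845135-16846316, was mixed, with 6 probes higher in PNS and 7 lower. The probe that overlaps it on its far side, chr3:16845503-16845562, also had a bright input and a difference of -0.52.

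Averaged over runs, no run of the window was called. Of the 53 runs, 0 had an adjusted p of at most 0.2 in limma, as had 0% of the 25615 runs of the array, and 4 had an unadjusted p of at most 0.05 (7.55% against 4.03%). The difference of the means was above 0 in 40 runs and below in 13, with a median of 0.14, against 50.2% above 0 and a median of 0.00 elsewhere. The direction went with brightness here too. Of the 31 runs with at most 25% bright probes, 27 were higher in PNS, and of the 10 runs with more than 50% bright probes, 3 were higher and 7 lower.

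The run of the first selected probe had a mean difference of 0.44 (SE 0.16), which was 0.32 without that probe, 0.25 with loess and 0.08 with normexp. The run chr3:16593945-16594982 had one of 0.43 (SE 0.13), and the order of the pair turned with median centring (0.32 and 0.44) and without C141 (0.41 and 0.44). The order also turned when C182, C184, C144 or C145 was left out. With chr3:17190823-17191919, the run at 16593945 was 1 of 2 runs whose groups did not overlap (3.77% against 3.23%). The run at 17190823 differed by 0.14, and by -0.06 with median centring. The mean of the run at 16593945 was -0.26, -0.22, -0.06 and -0.04 in Ctrl and 0.31, 0.30, 0.34 and 0.17 in PNS. Of its 14 probes, 12 were higher in PNS, 13 had a bright input on no array, and the 1 bright probe had a difference of 0.14. Within slides the run's difference was 0.57, 0.52, 0.41 and 0.21. With loess normalization within arrays it was 0.17, and with normexp 0.07. In the run chr3:17227263-17228258, all 8 probes were higher in PNS, by 0.36 on average (SE 0.16), and 1 of them was bright. The mean difference of this run was 0.27 with loess, 0.15 with median centring, 0.12 with normexp and 0.23 in the submitters' values.

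In the bright run of the highest level, chr3:17538312-17539544, all 12 probes were lower in PNS, by 0.36 on average, with an SE of 0.42 that exceeds the difference. Within slides the difference was -1.30, 0.73, -0.61 and -0.25, so 1 slide went the other way. Without C141 the difference was 0.06, and with median centring in place of quantile normalization it was 0.02, so its direction was not stable. C141, C182 and C180 had the lowest spread of log ratios before normalization, and C141 and C182 had the lowest levels of this run. Without these 3 arrays, a choice made after seeing the data, the levels were 3.13 in C184 and 3.04 in C185, against 2.34 in C142, 2.44 in C144 and 2.75 in C145, and the difference was -0.58 (SE 0.15, limma adjusted p = 0.15). In that fit of 2 against 3 arrays, 1480 runs (5.78%) passed the same limit over the array.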

How the data were processed

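MeDIP DNA from the prefrontal cortex of 4 Ctrl and 4 PNS rats was hybridised by the authors to Agilent promoter tiling arrays (design 030107, probes placed on rn4), with bound DNA in Cy5 and input in Cy3. The deposited scanner files (Feature Extraction 10.7.3.1) hold intensity values per spot, background-subtracted and dye-normalized by the authors' software, and its log10 ratio. The deposited value table holds log2 ratios of background-subtracted median intensities, quantile normalized, and was used as an alternative. In it, 674 of the window's 792 probes could be compared.

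Of 414785 non-control spots per array, 405 flagged as saturated or non-uniform were left out. The log2 ratio of the processed intensities was averaged over repeated spots, quantile normalized over 375108 probes, and fitted with limma 3.58.1 in R 4.3.3 (PNS minus Ctrl, no block, Benjamini-Hochberg adjustment). Run means covered runs of at least 3 probes. Levels and bright shares were compared over arrays by exact sign permutation, adjusted over 6 tests. The number of arrays, 4 per group, limits the precision. The functions for the limma fit, the separation of groups, the runs and the sign permutation were tested on simulated data.

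The members and lists were chosen with earlier results of these data known. Named were the selected probes and their runs, the 10 largest separated differences, separated probes bright in both channels, and the runs of extreme level or difference. Genes are not named, since no annotation of this build was used here.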

Additional observations from a re-analysis of the deposited data

Results flagged for a closer look

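Of 50 groups of 4 values examined, 3 held a value far from the others, where chance gives about 1 in 20. PNS rat C141 had an SD of log2 ratios before normalization of 0.611, where the rest of its group lay between 1.155 and 1.219. Over the window's probes, the mean correlation of C141 with the other arrays was 0.229, where the rest of its group lay between 0.4936 and 0.54. At the bright probe starting at 16845488, C144 had a log2 ratio of -1.18, below the -0.95 to -0.92 of the other PNS rats and on the same side of the controls.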

How the results depend on the processing

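Of the 6 tests, those of the window against the rest were recomputed, the level under every change of values or arrays and the bright share with flagged spots kept and without rats. Both kept direction and side of the threshold except without the 3 arrays of low spread (C180, C182 and C141), where they were -0.22 and -26.5 with an exact permutation p of 0.0625 each, the smallest that 5 arrays allow. The tests against the flanks were not recomputed. Without those 3 arrays, the means over the other probes of the selected runs were 0.13 and -0.0040, 54 probes were past the first stage (unadjusted p of at most 0.05, difference of at least 0.5) as higher and 28 as lower in PNS (6.82% and 3.54%, array 4.79% and 5.32%), 129 and 79 did not overlap (16.3% and 9.97%, array 13.7% and 15.6%), and 2 runs were called. This setting and that with both signals significant on all arrays were chosen after seeing the data. The latter left 222 window probes, with 2 and 3 past the first stage (0.901% and 1.35%, array 2.27% and 2.04%). It gave 3 and 5 without overlap (1.35% and 2.25%, array 1.74% and 1.76%), and a median difference of -0.11. Input-bright probes alone, 242 in the window, gave 5 and 2 past the first stage (2.07% and 0.826%, array 2.11% and 1.99%). They gave 4 and 4 without overlap (1.65% and 1.65%, array 1.81% and 1.73%), and a median of -0.064. Loess gave 21 higher past the first stage (array 2.31%), 18 lower without overlap (1.87%) and a median of 0.010. Normexp gave 0 and 1 past the first stage (array 0.158% and 0.473%), 4 lower without overlap (1.52%), a median of 0.035, and 0.25 and 0.21 at the selected probes. The submitters' values, with 674 window probes compared, gave 10 higher without overlap (1.48%, array 1.45%). They gave 0.94 and 0.46 at the selected probes, and 0.54 and 0.48 for the other probes of their runs. A minimum difference of 1 left 21 and 3 (array 1.55% and 0.785%). The causes were not tested.

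Leaving out 1 rat gave 22 to 50 higher (array 1.87% to 3.88%) and 5 to 27 lower (1.56% to 5.32%) past the first stage, and 24 to 45 higher (2.29% to 5.67%) and 12 to 29 lower (2.4% to 6.42%) without overlap. The 50 came without C184 and without C185, the other highest counts without C141. Arrays of 1 slide share no rat or litter. Their deviations correlated at 0.202, -0.116, 0.176 and 0.197, against a mean of -0.0324 between slides. A pairing needed every slide above 0.1, so none was used, though a slide effect may be present. Of the 8 rats, 4 correlated best with their own slide's rat. With the slide as a replicate block, 42 were higher and 17 lower past the first stage (array 3.24% and 2.91%) and 0 runs were called. Dim spots limit the window: 387 of its 792 probes had a bright input on no array.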
